A study of Homo sapiens with 2 samples.

Results

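Unclassified exon clusters are the RBM47 contacts that the deposited table places in an exon without naming it as coding sequence (CDS), 5'UTR or 3'UTR. They were chosen as every cluster whose location label is exon_unclassified and nothing else, leaving out those of the nuclear RNAs NEAT1 and MALAT1. This gave 2306 of 233546 clusters, or 0.987% (Wilson 95% interval 0.948 to 1.03). The label alone was carried by 2312 clusters, of which 5 belonged to NEAT1 and 1 to MALAT1, and 138 further clusters carried it together with another label and were not members.

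The cells were MDA231-BrM2a, a brain metastatic derivative of the breast cancer line MDA-MB-231. The paper's methods do not say whether the cells used here were a single clone. They expressed Flag-tagged wild-type RBM47 from a doxycycline-inducible construct, received doxycycline at 1 ng/ml for 3 days and were irradiated with ultraviolet light. In HITS-CLIP, RNA that is linked to a protein by the light is recovered with it on an antibody, here against Flag, and sequenced as short tags that pile up into clusters. The series has 1 group with 2 replicates, whose spread may be technical, and unspecific recovery of RNA could not be measured since a control library was not analysed here.

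RBM47 is an RNA-binding protein with RNA recognition motifs that is found mainly in the nucleus and takes part in RNA editing, splicing and mRNA stability. Exons outside coding sequence and UTRs belong to several kinds of RNA. Long noncoding RNAs (lncRNAs) are spliced and polyadenylated like mRNAs but have no annotated protein, small nucleolar RNAs (snoRNAs) guide the modification of other RNAs, and microRNAs are cut from longer primary transcripts. Protein-coding genes also give transcripts with retained introns or alternative ends whose exons have no coding frame.

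The sequences of small RNAs whose genes name members of the set show how short these RNAs are beside the clusters that carry their names. Mature microRNAs of RefSeq (GRCh38.p14) are printed from 5′ to 3′ with the seed, bases 2 to 8, in capitals, for the 2 microRNA genes with most tags and for 2 microRNAs processed from the MIR100HG transcript.
hsa-miR-614: gAACGCCUguucuugccaggugg
hsa-let-7a-5p: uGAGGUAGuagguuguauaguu
hsa-miR-100-5p: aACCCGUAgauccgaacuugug
hsa-miR-125b-5p: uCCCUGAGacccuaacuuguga
These 4 microRNAs have 4 different seeds. The clusters named for MIR614 and MIRLET7A2 were many times longer than the mature RNAs, as described below.

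Box C/D snoRNAs carry a C box near the 5′ end and a D box near the 3′ end. The first and last 24 bases of 2 of them are printed from GENCODE transcripts with a match to the boxes, TGATGA and CTGA on the transcript strand, in capitals. They were chosen because their clusters were among the most uneven between the replicates.
SNORD110 start: ttgcagTGATGActtgcgaatcaa
SNORD110 end: tgatgtctccatgtctCTGAgcaa
SNORD18B start: tcaaaaTGATGAgattccacttaa
SNORD18B end: gatatttgtggaaattCTGActtg
Of 390 SNORD transcripts in that annotation, 59.2% held TGATGA in their first 24 bases and 80.8% held CTGA in their last 24. The SNORD110 cluster was 74 nt long and its transcript 75 nt, and the SNORD18B cluster 83 nt against 72 nt.

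The label was first set against the type that RefSeq gives each gene. A gene ID was given to 1663 of the 2306 clusters, in 520 genes, of which 513 matched RefSeq by ID. The members were mixed in type. Protein-coding genes accounted for 36.5% ± 0.303 (SD, n = 2) of each replicate's member tags, in 1009 clusters of 357 genes. Genes typed as lncRNA held 16.3% ± 0.534, in 492 clusters of 106 genes. Nuclear clusters without a gene ID held 33.6% ± 0.160, in 611 clusters, and mitochondrial clusters without a gene ID 6.58% ± 0.588, in 32 clusters. The set is therefore not one of noncoding genes, and among the tags in genes with a RefSeq type 37.2% ± 0.163 (SD, n = 2) were in genes typed as other than protein coding. TUG1, the gene with most tags, is long known as a noncoding RNA but is typed as protein coding in the RefSeq table used here. With TUG1 counted as noncoding the value was 43.96% ± 0.0128.

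**Figure D1:**
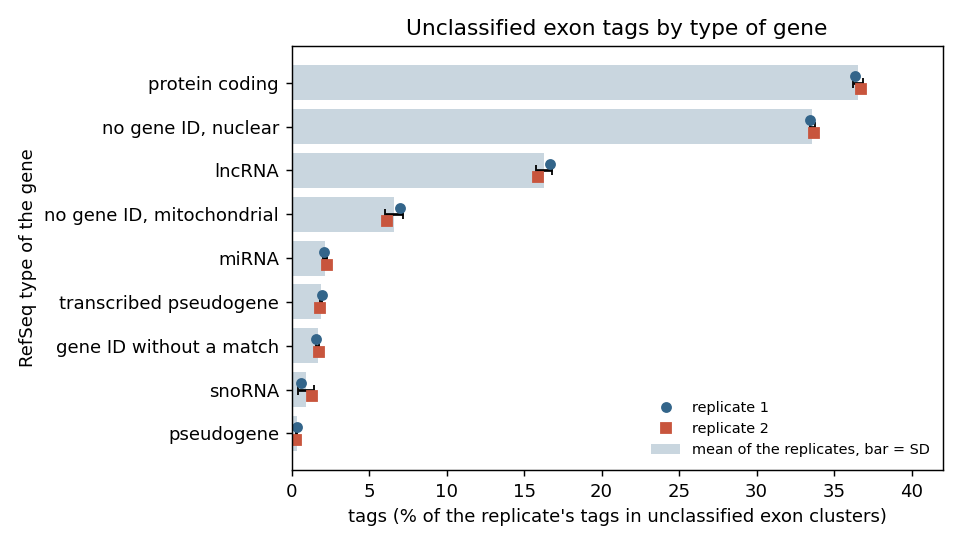
Tags in unclassified exon clusters by RefSeq type of the gene, as percent of each replicate's tags in such clusters. Bars are means with SD (n = 2) and points are the replicates. Protein-coding genes and nuclear clusters without a gene ID came first in both replicates, and snoRNA genes had 0.585% in replicate 1 and 1.31% in replicate 2.

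The smaller types differed in depth. The 4 microRNA genes had 1156 tags in only 5 clusters, with a median of 83 tags per cluster. The 32 mitochondrial clusters had a median of 66 tags. Transcribed pseudogenes had 964 tags in 85 clusters of 30 genes and other pseudogenes 156 tags in 12 clusters, with a median of 8 tags in each type. Tags of pseudogenes and of their parent genes may not have been told apart by the mapping, so these values are uncertain. The 12 snoRNA genes had 595 tags in 19 clusters.

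Depth of the members was compared with that of the other location labels. The members held 51452 tags, with 11450 in the replicate 1 column and 40554 in the replicate 2 column, out of 999047 and 3489697 tags in the table. Their share was 1.15% in replicate 1 and 1.16% in replicate 2, with a mean of 1.15% ± 0.0113 (SD, n = 2). The median member held 9 tags over a length of 85 nt, against 8 tags over all clusters, 13 in 3'UTRs, 9 in CDS and 7 in introns. Per kb of cluster the medians were 121 tags in members, 109 over all clusters, 153 in 3'UTRs, 120 in CDS and 97.6 in introns. By these medians the members were closest to CDS clusters.

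The upper tail of the members lay between CDS and 3'UTR clusters. At least 100 tags were reached by 79 members, or 3.43% (Wilson 95% interval 2.76 to 4.25), against 1.93% of all clusters, 6.38% of 3'UTR clusters, 1.36% of CDS clusters and 0.307% of intron clusters. These intervals cover counting error only, and clusters of the same transcript are not independent. The largest member had 817 tags. Most members were shallow, since 52.9% had no more than 2 replicate 1 tags.

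**Figure D2:**
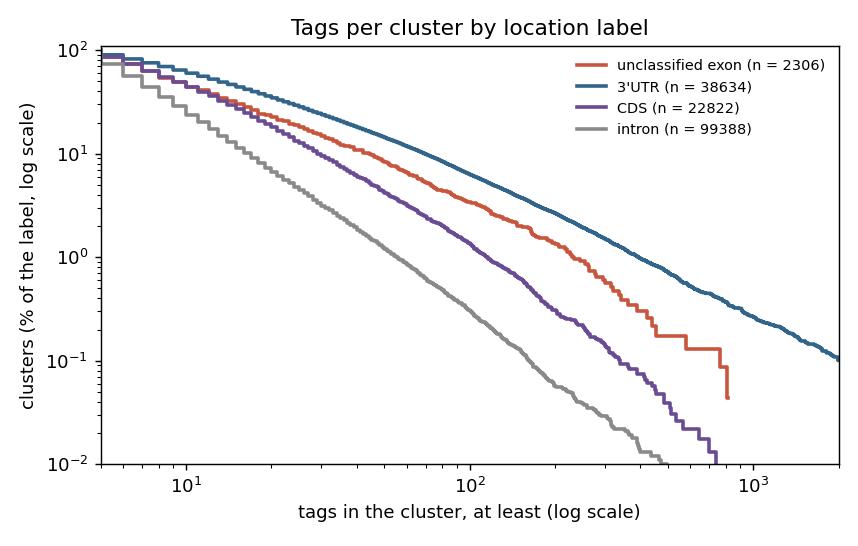
Share of clusters with at least a given number of tags, by location label, with both axes on a log scale. Above about 30 tags the unclassified exon curve ran above the CDS and intron curves and below that of 3'UTRs, with 3.43% of members reaching 100 tags.

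Within single genes the members were set against clusters of the same gene with another label. This holds the transcript's abundance fixed only as far as the labels come from the same transcripts. In 305 genes with both kinds, mean log2 tags per cluster were lower in members than in 3'UTR clusters in 237 genes and higher in 63. The median difference was -0.88 in replicate 1 and -0.97 in replicate 2, a mean of -0.92 ± 0.06 (SD, n = 2), and it was below 0 in both. In 278 genes with CDS clusters, members were lower in 174 and higher in 98, with a median difference of -0.24 ± 0.02 (SD, n = 2) over the replicates. In 387 genes with intron clusters the members were higher in 201 and lower in 176, and the median of 0.06 in total tags became -0.03 when counted per kb.

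The members were grouped in runs. A cluster of any label within 50 nt on the same strand was found for 54.5% of members, against 45.4% of all clusters, 72.1% of 3'UTR, 36.0% of intron and 31.5% of CDS clusters. The neighbour was another unclassified exon cluster for 50.6% of members, an intron cluster for 3.95% and a 3'UTR cluster for 0.304%. Joined over such gaps, the members formed 1511 blocks, of which 371 held several clusters, and the longest spanned 4448 nt. Whether the clusters of a block belong to 1 transcript is not given, so their number is not a number of independent contacts.

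The leading genes differed in how much of their binding was in unclassified exons. TUG1 (Entrez gene 55000), a nuclear and cytoplasmic lncRNA first described in the retina, had 31 member clusters on the plus strand of chromosome 22 between 29695954 and 29705372. It had 442 tags in replicate 1 and 1637 in replicate 2, equal to 0.456 ± 0.0189 (SD, n = 2) of every 1000 tags in a replicate. These were 99.03% of the gene's 2059 tags, and the rest were in introns. By the authors' total TUG1 also came first, with 2039 member tags against 1898 in MIR100HG. Keeping only clusters whose replicate columns sum to that total drops the other clusters whole. TUG1 then had 0.260 per 1000, below MIR100HG at 0.419 and next to TROVE2 at 0.254. Its first rank did not hold in that setting. No single cluster dominated TUG1, since the largest held 12.6% of its member tags.

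MIR100HG (Entrez gene 399959), the lncRNA from which miR-100, let-7a-2 and miR-125b-1 are processed, had 408 tags in replicate 1 and 1497 in replicate 2 over 23 clusters, or 0.419 ± 0.0146 (SD, n = 2) per 1000. Unlike TUG1 it had 86.4% of its 14101 tags in introns and 13.5% in members. The cluster named for MIRLET7A2 lay on the same chromosome and strand, had 55 and 191 tags, and was 693 nt long, against 72 nt for the let-7a-2 hairpin of RefSeq. The cluster was thus longer than the hairpin whose name it carries.

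MIR614 (Entrez gene 693199) named 2 clusters on chromosome 12, plus strand, with 174 tags in replicate 1 and 721 in replicate 2, or 0.190 ± 0.0229 (SD, n = 2) per 1000. Most of this was in 1 cluster with 157 tags in replicate 1 and 655 in replicate 2, against a total of 810. Without clusters whose total falls short of the sum of the replicates, by however little, the value was 0.0232. The larger, at 12960106 to 12960920, held 810 tags over 814 nt, against the 23 bases of the mature RNA printed above. Together with 3 clusters without a gene ID, the 2 MIR614 clusters formed a block of 2580 nt with 2119 tags. The nearest cluster with a gene and another label on that strand was a 3'UTR cluster of GPRC5A, 1584 nt upstream of the first of the 3. MIR1304 had 6 tags in replicate 1 and 4 in replicate 2, and MIR548N had 3 and 4.

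Among antisense transcripts, 41 genes had 211 member clusters with 3198 tags. HNRNPU-AS1 had 142 tags in replicate 1 and 593 in replicate 2, and its ID had no match in the RefSeq table. FGD5-AS1 had 107 and 391 tags, OIP5-AS1, a lncRNA also known as cyrano, had 93 and 304, and FLJ31306, now PSMA3-AS1, had 83 and 254. The member share of the gene's tags was high in the first of these, at 98.5% in HNRNPU-AS1 and 97.2% in FGD5-AS1, and lower in OIP5-AS1 at 69.3% and FLJ31306 at 29.3%. SLC7A11-AS1 had 64 and 233 tags. Its cluster at 139309306 to 139309805 on chromosome 4, with 101 tags, overlapped SLC7A11 3'UTR clusters of up to 2956 tags on the opposite strand. Tags on the wrong strand were not measured, so the part of the more abundant SLC7A11 in this value was not tested. Overlap with a cluster on the opposite strand was found for 28 members, or 1.21%, most of them mitochondrial.

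The other long noncoding transcripts spread over many genes with few tags each. Of 30 lncRNAs of known name, 8 had member clusters, led after TUG1 by FTX with 100 tags in replicate 1 and 354 in replicate 2, OIP5-AS1, and FLJ43663, now LINC-PINT, with 24 and 90. FTX, a neighbour of the X-inactivation centre and itself a microRNA host, had 94.8% of its tags in introns. Of 14 microRNA host transcripts, 4 had members, and after MIR100HG and FTX they were MIR503HG with 14 and 35 tags and MIR17HG with 2 and 3. The list was not complete, and 4 further genes with a microRNA host symbol had 86 member tags in all. There were 24 genes of the LINC series with 1620 tags, led by LINC00472 with 84 and 265, LINC00707 with 58 and 170, LINC00641 with 47 and 145, and LINC00883, now DUBR, with 40 and 128. Genes listed under a LOC symbol numbered 38 with 1504 tags, and 6 of them are also among the 24 LINC genes by their current symbol. RefSeq types 26 of the 38 as lncRNA, 7 as transcribed pseudogenes and 2 as protein coding, and 3 had no match. LOC100294145 led them with 82 and 254 tags, followed by LOC100506710, now the pseudogene EBLN3P, with 35 and 115.

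In most lncRNA genes with members, the members held the larger part of the gene's tags. The median member share was 69.2% over the 106 lncRNA genes, and it was above 50% in 60 of them. Over all 520 genes with a member, the members took 6.22% ± 0.125 (SD, n = 2) of the genes' tags, and introns held 59.3%. Over the 357 protein-coding genes the median was 3.41%, with more than 50% in 39 genes. Of the 106 lncRNA genes, 5 had any 3'UTR cluster and 3 any CDS cluster, against 294 and 271 of the 357 protein-coding genes. How far the difference in member share follows from these labels was not tested.

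**Figure D3:**
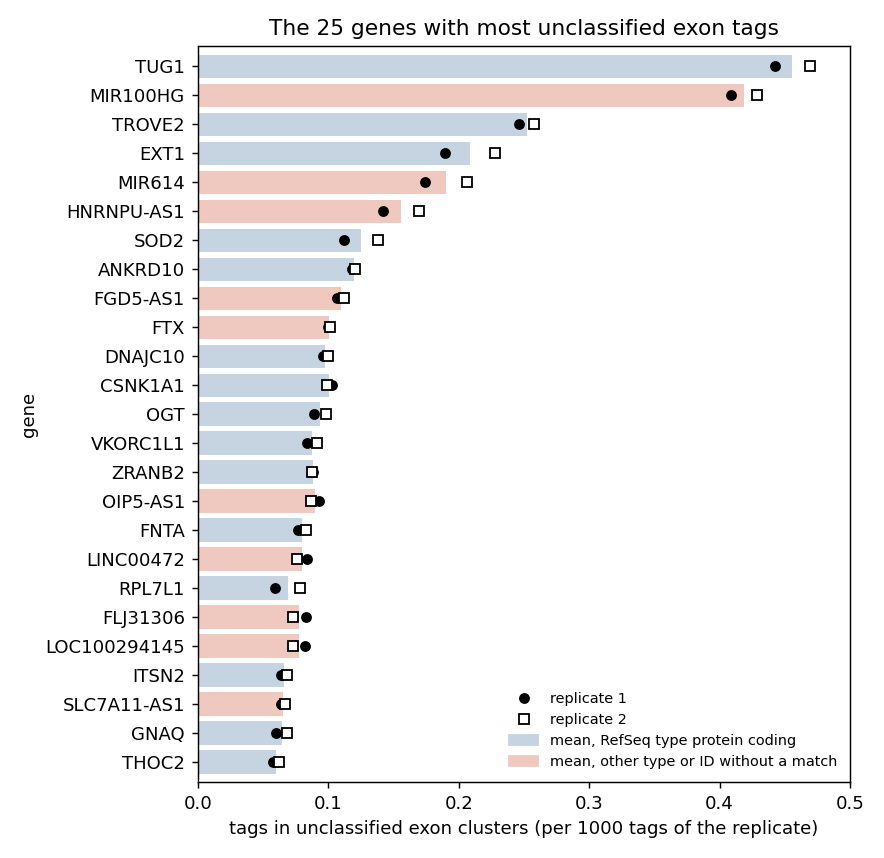
Tags in unclassified exon clusters per 1000 tags of the replicate for the 25 genes with most such tags. Bars are means, coloured by RefSeq type, and points are the replicates. TUG1 and MIR100HG had the highest means, 0.456 and 0.419, and MIR100HG had the higher value when only clusters whose replicates sum to the total were kept.

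Protein-coding genes made up 14 of the 25 leading genes besides TUG1. TROVE2, now RO60, which codes for the Ro60 protein that binds Y RNAs, had 246 tags in replicate 1 and 900 in replicate 2 over 16 clusters, or 0.252 ± 0.00825 (SD, n = 2) per 1000, and these were 48.2% of the gene's tags. EXT1, a glycosyltransferase of heparan sulfate synthesis, had 189 and 796 tags in 9 clusters. These were 1.79% of its 54399 tags, of which introns held 92.9%. SOD2, the mitochondrial superoxide dismutase, had 112 and 481 tags, 45.3% of the gene's tags. ANKRD10 had 118 and 422 tags, 36.3%, with 51.7% in introns.

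The other protein-coding genes in this group ranged from 272 to 444 member tags. DNAJC10, a disulfide reductase of the endoplasmic reticulum, had 96 and 348 tags in 3 clusters, and 1 of these held 390 tags. CSNK1A1, casein kinase 1 alpha, had 103 and 345 tags, OGT, the O-GlcNAc transferase, 89 and 342, and the splicing factor ZRANB2 88 and 307. In these 4 genes the members held between 17.1% and 24.9% of the gene's tags. VKORC1L1, FNTA, ITSN2, GNAQ and RPL7L1 had between 60.9% and 70.1% of their tags in members, and THOC2, a subunit of the THO export complex, had 44.8%. Of these, RPL7L1 was the least even between replicates, with 59 and 275 tags.

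**Figure D4:**
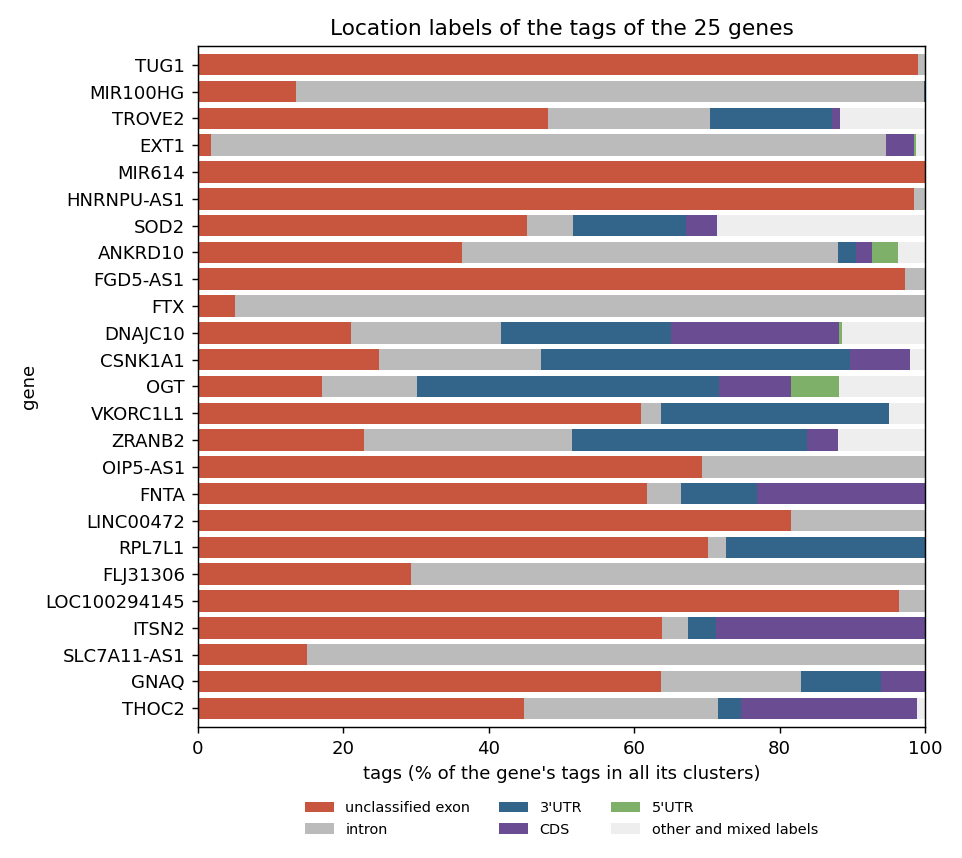
Location labels of all tags of the same 25 genes, as percent of the gene's tags. The unclassified exon part runs from 1.79% in EXT1 to 100% in MIR614, and the intron part is largest in FTX at 94.8%, EXT1 at 92.9% and MIR100HG at 86.4%.

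The members of protein-coding genes were placed relative to the gene's own clusters with a label that includes 3'UTR but not intron. In 303 such genes, counting each cluster by its position along the strand, 516 of 842 members (61.3%) lay before the first 3'UTR cluster. A further 124 (14.7%) lay between 3'UTR clusters and 202 (23.99%) beyond the last. The members of GNAQ, VKORC1L1 and RPL7L1 all lay beyond the last one, and those of OGT, DNAJC10, EXT1, ITSN2 and FNTA all before the first. CSNK1A1 had members on both sides, with 108 tags before and 334 beyond, and those of TROVE2, SOD2 and ANKRD10 lay between. Which transcript a member belongs to is not given by the table.

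Ranked by tags per kb of member clusters among the 66 genes with more than 100 member tags, the order changed. RPL23A, a protein of the large ribosomal subunit, came first at 1652 tags per kb, from a single cluster of 89 nt with 22 tags in replicate 1 and 125 in replicate 2. SNORD110 followed at 1432 and MIR614 at 854, while TUG1 was at 315 and ranked 13. The 10 genes with most member tags held 18.5% ± 1.00 (SD, n = 2) of the member tags. Of the 520 genes, 270 had a single member cluster and 41 had at least 10.

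Nearly as many tags lay in nuclear members without a gene ID as in protein-coding genes. Members without a gene ID, joined when less than 5000 nt apart on the same strand, formed 124 stretches, 122 of them nuclear. The first 10 nuclear stretches held 66.6% of the nuclear tags without a gene ID. The largest, from 167908078 to 167912732 on chromosome 5, minus strand, had 11 clusters with 541 tags in replicate 1 and 2084 in replicate 2, or 0.569 ± 0.0394 (SD, n = 2) per 1000. That is more than the members of TUG1 held in either replicate. It started 2469 nt beyond the nearest gene-bearing cluster on its strand, a 3'UTR cluster of PANK3, a pantothenate kinase. It held the largest member of all, at 167911251 to 167912732, with 142 and 675 tags.

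Of the 10 members with most tags, 8 had no gene ID. The PANK3 stretch held 4 of them, with 817, 455, 439 and 362 tags. Clusters of 764 and 343 tags stood beside those named for MIR614, and the other 2 lay beyond BROX with 579 tags and beyond ATL3 with 424 tags. The 2 with a gene ID were the MIR614 cluster of 810 tags and the DNAJC10 cluster of 390 tags.

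The same arrangement was found at most of the other large stretches. The stretch from 63148130 to 63152271 on chromosome 11, minus strand, had 379 and 1361 tags and lay 660 nt beyond a 3'UTR cluster of ATL3, an atlastin of the endoplasmic reticulum. That on chromosome 1 at 220973310 to 220975194 had 208 and 773 tags and lay 304 nt beyond a BROX cluster. Others lay 861 nt beyond a 3'UTR cluster of RC3H2, 5080 nt beyond AGO2, 901 nt beyond BMP2K, 958 nt beyond SLC36A4 and 962 nt beyond LMBRD2. In all, 47 stretches with 68.3% of the tags without a gene ID lay downstream, on the same strand and within 10000 nt, of the nearest cluster that had a gene and another label. In 41 of the 47 that cluster had a label that includes 3'UTR, alone or with CDS or intron. Only 3 lay upstream, 1 overlapped, and 73 had no such cluster within that distance. The distance is to a cluster and not to a gene end, and whether a stretch belongs to the transcript of the named gene was not tested.

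The mitochondrial genome held 32 members, with 3295 of the 5643 tags of all 82 mitochondrial clusters (58.4%). Per 1000 tags of a replicate they had 0.802 in replicate 1 and 0.716 in replicate 2, a mean of 0.759 ± 0.0604 (SD, n = 2). Of the 32, 31 were on the plus strand between 3431 and 14598, where most mitochondrial mRNAs lie, with 793 and 2399 tags. Replicate 1 gave 24.8% of these (Wilson 95% interval 23.4 to 26.4). The deepest, at 3431 to 3719, had 82 and 233 tags. The only member on the minus strand, at 146 to 409, had 8 and 101 tags.

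The split of tags between the replicates was then compared over the members. Replicate 1 gave 22.0% of their tags (Wilson 95% interval 21.7 to 22.4) against 22.3% over all clusters. Across members, Spearman's rho between replicates was 0.575 and Pearson's r of log2(tags + 1) was 0.795, given as a description since clusters are not independent. An exact binomial test of each cluster's split with Benjamini-Hochberg adjustment called 0 of the 2306 members, against 0.0111% of all 233546 clusters, and a beta-binomial test also called 0, against 0.00428%. At an unadjusted p under 0.05 the exact binomial test gave 88 members, or 3.82%, against 3.04% of all clusters. Of the 88, 33 were lower in replicate 1 and 55 higher. The smallest adjusted p in this exact test was 0.233, for the minus-strand mitochondrial cluster. These tests compare 2 libraries and not conditions.

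The members in snoRNA genes were less represented in replicate 1 than the rest. They had 67 tags in replicate 1 and 532 in replicate 2, a replicate 1 share of 11.2% (Wilson 95% interval 8.90 to 14.0) against 22.1% (21.8 to 22.5) for the members outside snoRNA genes. In box C/D snoRNA genes the share was 9.05% (6.81 to 11.9), from 44 and 442 tags in 13 clusters. The H/ACA snoRNA gene SNORA8 had 23 and 90 tags in 6 clusters, a share of 20.4% (14.0 to 28.7). These 6 clusters spanned 4630 nt within the span of the TAF1D members on the same strand, far longer than a snoRNA, so the name does not show that their tags came from SNORA8 and they are no measure of H/ACA snoRNAs. No single cluster passed the adjusted test, and whether the pooled share differs beyond the spread of libraries cannot be told with 2 replicates.

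The low share was seen in each box C/D cluster of at least 30 tags. SNORD110 had 8 tags in replicate 1 and 98 in replicate 2, SNORD87 had 7 and 79, SNORD99 had 6 and 68, and SNORD18B had 2 and 58. SNORD11 had 5 and 39, SNORD93 had 1 and 32, and SNORD70 had 2 and 30. These 7 clusters had shares between 3.03% and 11.4%, all below that of the members as a whole. The exceptions were the 3 clusters of SNORD1C, with shares from 28.6% to 71.4% on 5 to 7 tags each. These 3 lay between 72070865 and 72071307 on chromosome 17, before the SNHG16 members that start at 72071457 on the same strand. The name does not show that their tags came from SNORD1C. Clusters of box C/D genes with other labels, which the rule did not choose, had a share of 11.9% (8.76 to 16.0) from 37 and 274 tags in 8 clusters. The lengths of the 13 clusters ran from 53 to 121 nt, with a median of 62 nt against 85 nt for members outside snoRNA genes.

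Genes that host snoRNAs in their introns had members too. Of 23 host genes listed, 14 had 44 member clusters with 784 tags, and replicate 1 gave 17.8% of them (Wilson 95% interval 15.3 to 20.6). The median share per cluster was 20%, close to the median of 20.8% over all clusters of the table. Of the 44, 27 were below the pooled share of 22.3% over all clusters. That pooled share is above the median over all clusters, so most clusters of any kind fall below it. Without the 3 clusters of at least 30 tags with the lowest shares, 1 each in SNHG29, ZFAS1 and C6orf48, the pooled share was 20.6%. ZFAS1 had 32 tags in replicate 1 and 179 in replicate 2, TAF1D had 33 and 140, SNHG16 had 29 and 80, and SNHG1 had 19 and 86. Among the lowest shares outside snoRNA genes were single clusters in C18orf32 with 3 and 66 tags, C17orf76-AS1, now SNHG29, with 2 and 50, ZFAS1 with 3 and 52, RPL13 with 3 and 52, HSPA8 with 6 and 67, and WDR43 with 2 and 40. A cluster without a gene ID on chromosome 10 at 115662738 to 115662903 had 1 and 34 tags, a share of 2.86%, the lowest of the members with at least 30 tags. They were singled out after their values were seen. SNHG29 and ZFAS1 were among the listed hosts. RPL13, HSPA8 and WDR43 are also known snoRNA hosts but were not on that list, so naming them as hosts followed from their low shares. Whether these tags came from the host exon or from a snoRNA was not tested. None of the 25 listed abundant structural RNAs, such as spliceosomal and 7SK RNAs, named a cluster in the table under the symbols searched.

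**Figure D5:**
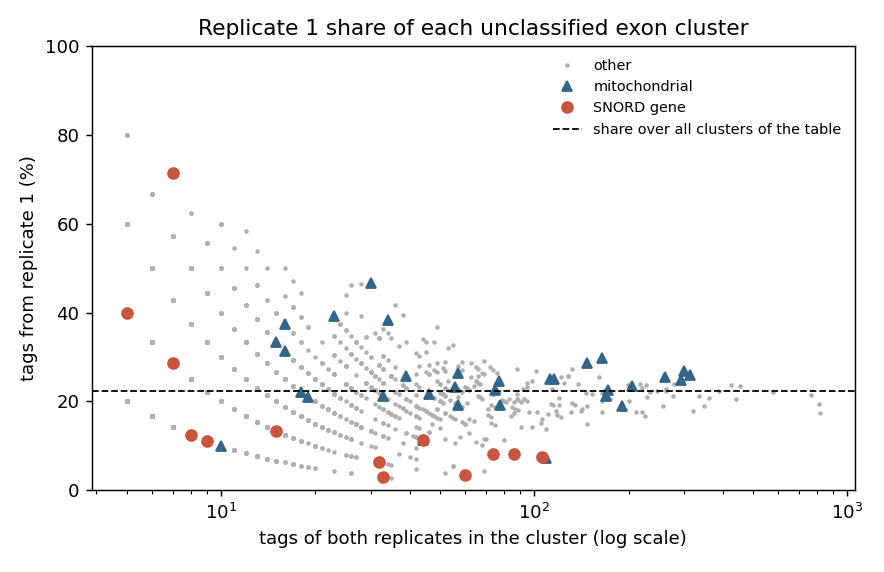
Share of each member's tags that came from replicate 1, against its tags in both replicates on a log scale. The dashed line is the 22.3% of all clusters. The SNORD clusters of at least 30 tags lie between 3.03% and 11.4%, and the lowest mitochondrial cluster of that depth is the one on the minus strand, with 8 and 101 tags.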

How the data were processed

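HITS-CLIP clusters of Flag-RBM47 from 2 libraries of MDA231-BrM2a cells were analysed. The authors added poly(A) tails to the fragments, copied them into cDNA from primers holding degenerate bases, mapped the reads, collapsed them to unique tags and joined overlapping tags into clusters. The submitters' processing notes name Novoalign and hg18. Deposited for each cluster were tag counts, in a column per replicate and a total. No cluster had less than 1 tag in a replicate or less than 5 in total, so column sums are not library depths. Whether the libraries came from separate cultures is not given.

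The total was used to filter and rank, and the replicate columns for shares, as mean ± SD. It was below the sum of the replicates in 364 members. Coordinates are those of the table on hg18, and whether they count from 0 or 1 is unknown. Gene IDs were paired with RefSeq (GRCh38.p14) for current symbols and types. SnoRNA transcripts came from GENCODE v44 lifted to GRCh37, by symbol. The result of 1 stretch is not reported here. No hg18 genome was used, so cluster sequences were not read. Each cluster's split was tested against the share over all clusters by a two-sided exact binomial test (scipy 1.17.1). Its p-values were adjusted by Benjamini-Hochberg over 233546 clusters. A run on simulated data changed the split only in clusters of at least 100 tags. Only 3.43% of members reach that depth, so the run does not show what the test can find in the rest. An alternative was a beta-binomial test with overdispersion estimated from clusters of at least 30 tags. Wilson intervals at 95% cover counting error only.

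Named were the 25 genes with most member tags, the 4 leading genes of each gene list, the 10 largest members, the 5 genes with most members and the 5 largest members without a gene ID. Members and lists were chosen with earlier results of these data known. Alternatives changed the tag minimum, the label rule, the clusters kept and the replicate used.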

Additional observations from a re-analysis of the deposited data

How the results depend on the processing

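The tag minimum moved most values. With at least 10 tags per cluster there were 1130 members, with 1.23% of tags and 1.19% of clusters, a median of 18 tags and 121 nt, 21.6% of tags in the 10 leading genes, 9.91% of the genes' tags, 36.9% of typed tags in noncoding genes, a rho between replicates of 0.653 and a replicate 1 share of 21.2%. With at least 30 tags the same values were 358, 1.29%, 1.62%, 52.5 tags, 200.5 nt, 28.4%, 16.1%, 35.7%, 0.713 and 20.8%, and 36 genes had more than 100 member tags. With every label that includes the unclassified exon, the shares were 1.22% of tags, 1.05% of clusters and 17.5% in the leading genes. With NEAT1 and MALAT1 included, members held 4.83% of tags, the 10 leading genes 80.1%, members 29.5% of the genes' tags and noncoding genes 90.3%, the replicate 1 share was 21.3%, and 4 members passed the split test in place of 0. With only clusters whose replicates sum to the total, the leading genes held 17.1%, members 6.50% of the genes' tags and noncoding genes 37.4%, with a rho of 0.521. Merging over 50 nt gave 1511 members with a median of 93 nt.

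With each replicate left out, the number of members ranged from 559 to 1789, their share of tags from 1.19% to 1.28% and of clusters from 1.08% to 1.41%, the median from 8 to 10 tags and the median length from 96 to 156 nt. The leading genes held 20.0% to 24.4%, members 7.39% to 12.96% of the genes' tags, and noncoding genes 36.8% to 37.3%. Genes with more than 100 member tags numbered 7 without replicate 2 and 52 without replicate 1. By construction, 5 tags are harder to reach in replicate 1 alone.

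Of the 25 named genes, 11 moved by over 1.5 times in tags per 1000 with at least 30 tags per cluster, 5 without replicate 2 and 4 with only clusters whose replicates sum to the total. In this last setting TUG1 fell to 0.260, MIR614 to 0.0232, CSNK1A1 to 0.0322 and LOC100294145 to 0.0504. Without replicate 2, MIR100HG was at 0.652, TROVE2 at 0.386, DNAJC10 at 0.149, ZRANB2 at 0.143 and LINC00472 at 0.128. A minimum also reduces the tags of the table that these values are divided by.

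Chosen after the data were seen, leaving out the 3 host clusters of lowest share gave 20.6% for snoRNA hosts, leaving out the mitochondrial clusters gave 1.08% of tags, and counting TUG1 as noncoding gave 43.96% for noncoding genes. The median of members stayed above that of all clusters under all 7 alternatives run for it. No paired analysis was possible because the series has 1 group only. With a median of 2 replicate 1 tags per member, single members were measured imprecisely in that library.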
